A study of Rattus norvegicus with 4 samples.

Results

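The genes described here build the hemidesmosome, the junction that holds the basal cells of a stratified epithelium to its basement membrane. They were chosen by gene symbol: every probe set whose only symbol in the platform annotation was Lama3, Lamb3, Itga6, Itgb4, Col17a1, Dst, Plec, Cd151 or Col7a1. This gave 16 probe sets of 31042 tested and 9 genes of 14217 with a probe set of 1 symbol. Itga6 was measured by 4 probe sets, Dst by 5 and each other gene by 1.

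The study used rat expression arrays to compare 2 samples of junctional epithelium with 2 samples of peri-implant epithelium. Junctional epithelium is the epithelial collar by which the gingiva attaches to the tooth, and peri-implant epithelium is its counterpart at an implant. All 4 samples came from male Sprague Dawley rats, which the labels do not describe as genetically altered. At the age of 4 weeks they lost the first molar of the left upper jaw and received an implant of titanium alloy, and the tissue of 20 rats was collected another 4 weeks later. Both groups carry the same treatment label, tooth extraction with implant placement, so the junctional samples are not labelled as coming from unoperated animals. The epithelium was cut from frozen sections by laser microdissection and its RNA was amplified before hybridization. The labels leave unstated how many animals stand behind an array, whether they were pooled and beside which tooth the junctional epithelium was cut. The p-values below therefore measure the spread between these samples, which may be technical, and precision is limited by having 2 arrays per group.

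Hemidesmosomes work as a chain from the matrix to the cytoskeleton. Laminin-332, a trimeric matrix protein that includes the laminin alpha 3 and beta 3 chains, is laid down by basal keratinocytes and is bound by the alpha6beta4 integrin. Inside the cell the beta 4 tail binds plectin, collagen XVII joins the complex across the membrane, and plectin and the epithelial form of dystonin (BP230) tie it to keratin filaments, while collagen VII anchors the basement membrane to the connective tissue beneath. In junctional epithelium such plaques face both the connective tissue and the tooth, where the laminin-rich internal basal lamina lies. Mutations in most of the human genes for these proteins cause forms of epidermolysis bullosa.

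Both measured chains of laminin-332 and both subunits of its receptor integrin had lower signals in peri-implant epithelium, whereas no probe set of the other membrane, plaque and anchoring genes passed the test. Lama3 stood at 47.8% and Lamb3 at 50.9% of the junctional level, the 4 Itga6 probe sets at 52.7% to 76.6%, and Itgb4 at 72.8%. These 7 probe sets fell in a limma fit whose variance prior follows signal intensity (eBayes with an intensity trend and a robust prior, Benjamini-Hochberg adjusted p below 0.05 over all 31042 probe sets). None of the 16 rose and 9 did not pass. Of all probe sets, 4.16% were lower and 4.74% higher by that test. Among the 1078 probe sets with a mean log2 signal of at least 12, where 10 of the members lie, 11.1% were lower and 9.74% higher. The limma fit with default settings called 0 of the 16 and 0% of all probe sets, with 6 of the 16 and 5247 of all at an unadjusted p under 0.05. Every "fell" and "rose" below refers to the fit with the intensity trend.

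The median log2 difference, peri-implant minus junctional, was −0.39 over the 16 member probe sets and 0.02 over all probe sets. For the 10 members with a mean of at least 12 it was −0.59, against 0.01 over the 1078 probe sets of that brightness. Of the 16 member probe sets, 12 had both peri-implant arrays below both junctional arrays and 0 had both above, while 25.4% of all probe sets were lower without overlap, and 31.7% of those with a mean of at least 12. The 12 include all 4 Itga6 probe sets and Dst 1395274_at, which lay above background on 1 array. They also include Dst probe sets with a mean below 12, so the share of 31.7% is not matched to them. With 2 arrays against 2, an exact two-sided permutation test cannot give a p below 0.333. The calls also rest on single libraries. Of the 7 that fell, only Lama3 still passed without junctional array 1 and 0 passed without junctional array 2, whereas 7 passed without peri-implant array 1 and 5 without peri-implant array 2, where Itgb4 and 1 Itga6 probe set were lost. All 7 differences stayed negative in each of these fits.

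**Figure D1:**
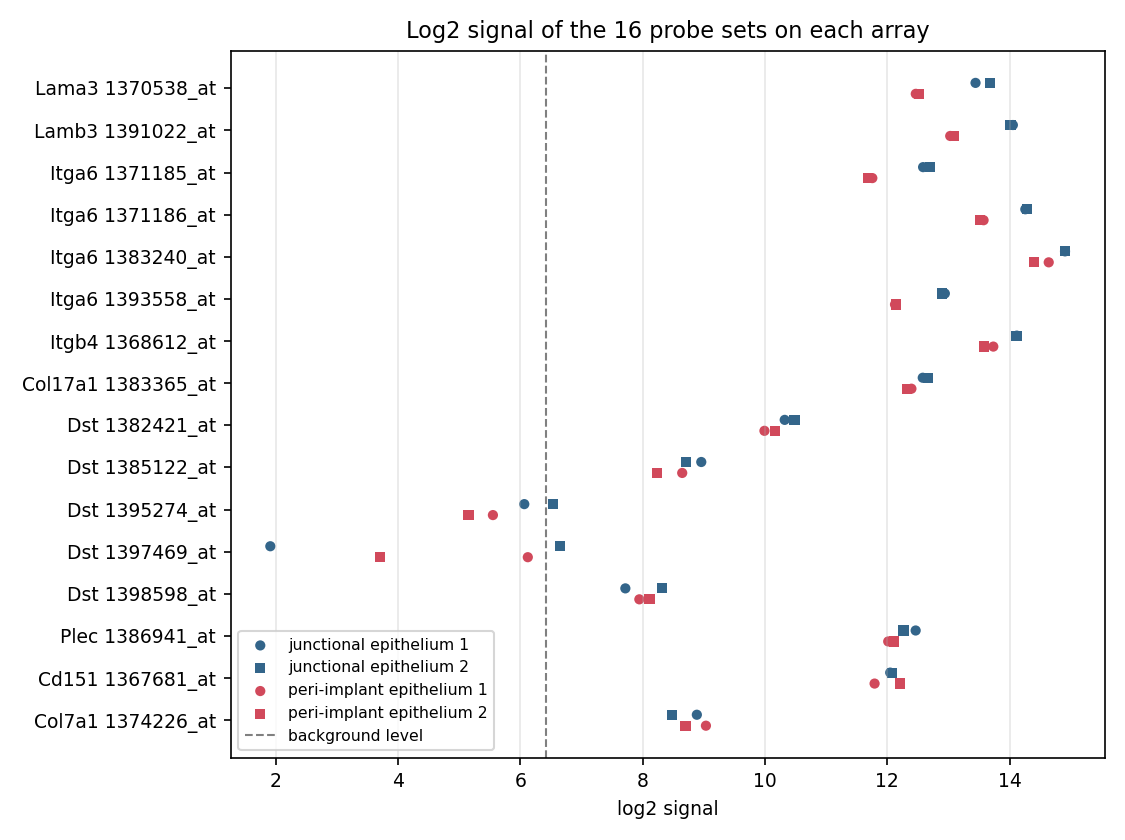
Log2 signal (horizontal axis) of each member probe set on the 4 arrays. Each row is a probe set, with 1 point per array, coloured by group, and the background level of 6.42 as a vertical line. The junctional points of Lama3, Lamb3, Itga6 and Itgb4 lie to the right of the peri-implant points, at higher signals. For 2 of the 5 Dst probe sets, most points lie below the background level.

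The 4 arrays were similar in several measures of quality but differed by replicate number at low signals. On junctional arrays 1 and 2, 728 and 377 probe sets read log2 0, and on peri-implant arrays 1 and 2, 661 and 381. The median log2 signals were 6.88 and 7.01 on the junctional arrays, against 6.95 and 7.04 on the peri-implant arrays. The background level was set at 6.42, the top value reached by any of 27 bacterial controls, and 54.6% to 56.8% of probe sets lay above it. Across probe sets, replicate arrays correlated at 0.914 (junctional) and 0.911 (peri-implant), and arrays of different groups at 0.882 to 0.887 (Pearson's r). The 3' minus 5' log2 signal of Gapdh, a measure of RNA integrity and amplification, was 0.678 and 0.578 on the junctional arrays, against 0.519 and 0.532 on the peri-implant ones. For Gapdh the junctional arrays were thus higher, without overlap. For beta-actin the same measure was larger, at 1.298 and 1.474 on the junctional arrays against 1.371 and 1.259 on the peri-implant ones, and the groups overlapped. Whether RNA integrity or amplification contributes to any difference below was not tested.

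Lama3 (chr18:3797898-4033021 in GRCr8) encodes the laminin alpha 3 chain, which carries the part of laminin-332 that integrins bind. Its log2 signal was 13.44 and 13.68 in the junctional arrays and 12.46 and 12.52 in the peri-implant arrays. Both peri-implant arrays were lower, by 0.92 from the nearest junctional array. The difference was −1.07 (SE 0.0894, n = 2 and 2), and Lama3 fell at a limma adjusted p of 0.000167 with the intensity trend, against 0.187 with default settings.

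Lamb3 (chr13:107362514-107404081) encodes the beta 3 chain, which is known chiefly from laminin-332. Its log2 signal was 14.05 and 14.01 on the junctional arrays, against 13.03 and 13.09 on the peri-implant arrays. The groups again did not overlap, and the replicates lay within 0.06 of each other in log2 signal. Lamb3 fell by 0.97 (SE 0.0679, limma adjusted p = 4.43e-05 with the intensity trend, 0.181 with default settings). Of the 1078 bright probe sets, 3 had a lower difference than Lama3 and 4 a lower one than Lamb3.

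The upstream sequences of Lama3 and Lamb3, the 2 genes with the largest falls among the members, and of Col17a1, a hemidesmosome gene whose difference did not pass, are shown from RefSeq (GRCr8) with matched motifs in capitals. The motifs searched on both strands were the AP-1 motif TGANTCA, the GC box GGGCGG and the TATA box TATAAA. The table held promoters for 6 of the 9 genes, with Itga6, Itgb4 and Plec not matched. The Lama3 sequence precedes a start site 154869 bases inside the gene's outermost start, and the Lamb3 sequence is cut at the gene's outermost start, so it shows 211 bases and lacks the 39 nearest to its start site.
Lama3, chr18:3952517-3952766, plus strand: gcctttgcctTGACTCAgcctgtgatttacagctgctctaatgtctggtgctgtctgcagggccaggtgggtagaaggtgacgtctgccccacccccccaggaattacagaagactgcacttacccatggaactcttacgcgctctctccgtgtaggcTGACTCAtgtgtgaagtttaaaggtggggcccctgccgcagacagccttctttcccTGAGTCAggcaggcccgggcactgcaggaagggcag
Lamb3, chr13:107362303-107362513, plus strand: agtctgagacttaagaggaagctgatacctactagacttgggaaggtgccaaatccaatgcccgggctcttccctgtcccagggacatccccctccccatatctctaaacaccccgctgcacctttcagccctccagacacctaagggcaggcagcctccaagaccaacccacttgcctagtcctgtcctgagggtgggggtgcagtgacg
Col17a1, chr1:256518858-256519107, minus strand: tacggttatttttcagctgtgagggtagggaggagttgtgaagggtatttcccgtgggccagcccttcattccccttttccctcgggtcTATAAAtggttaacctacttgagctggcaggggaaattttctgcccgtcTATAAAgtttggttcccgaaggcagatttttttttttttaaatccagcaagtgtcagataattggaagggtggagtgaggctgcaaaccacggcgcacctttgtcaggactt

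In the 250 bases before the start site, including the 39 of Lamb3 that are not printed, Lama3 held 3 AP-1 matches, starting 240, 92 and 36 bases upstream. Lamb3 held none of the 3 motifs, and Col17a1 held a pair of TATA matches, 161 and 112 bases upstream. An AP-1 match occurred in 6.34% of all 33469 promoters of that length and in 1 of the 6 matched members. GC boxes occurred in 30.5% of promoters and in 3 of the 6 (Dst, Cd151 and Col7a1), and TATA matches in 12.9% and in 1 of the 6. The E box CANNTG, searched as well but not set in capitals, occurred in 65.5% of promoters and in 3 of the 6 (Lama3, Lamb3 and Col17a1). These letters describe the sequence and were not tied to the signals.

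Itga6 (chr3:77012168-77097076) encodes the alpha 6 subunit, which pairs with beta 4 in hemidesmosomes and with beta 1 elsewhere. The probe set 1371185_at read 12.58 and 12.70 on the junctional arrays, against 11.75 and 11.68 on the peri-implant arrays (log2). The probe set 1371186_at read 14.25 and 14.28 against 13.57 and 13.51, and 1393558_at read 12.94 and 12.90 against 12.12 and 12.14. The probe set with the brightest signal, 1383240_at, read 14.90 and 14.90 against 14.64 and 14.40. All 4 probe sets were lower on both peri-implant arrays, without overlap, and all 4 fell with the intensity trend.

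The sizes differed between Itga6 probe sets. The log2 differences were −0.92 (SE 0.085, adjusted p = 0.000256), −0.73 (SE 0.0646, adjusted p = 0.000205), −0.78 (SE 0.0763, adjusted p = 0.000335) and −0.38 (SE 0.0781, adjusted p = 0.0164) in the order given above, by limma with the intensity trend. Within each array, 1371185_at moved relative to 1383240_at by −0.62 and −0.46 in the peri-implant arrays, while the junctional arrays lay 0.06 either side of their mean. The mean over the 4 probe sets was −0.70. The call of 1383240_at was lost when all arrays were shifted to one median (limma adjusted p = 0.0675). Which transcripts each probe set detects was not examined, and probe sets of 1 gene are not independent replicates.

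Itgb4 (chr10:101705592-101741933) encodes the beta 4 subunit, whose long cytoplasmic tail recruits the plaque. Its log2 signal was 14.12 and 14.11 on the junctional arrays, against 13.73 and 13.58 on the peri-implant arrays. The peri-implant arrays lay lower, without overlap. Itgb4 fell by 0.46 (SE 0.0721, limma adjusted p = 0.00525 with the intensity trend and 0.324 with default settings).

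**Figure D2:**
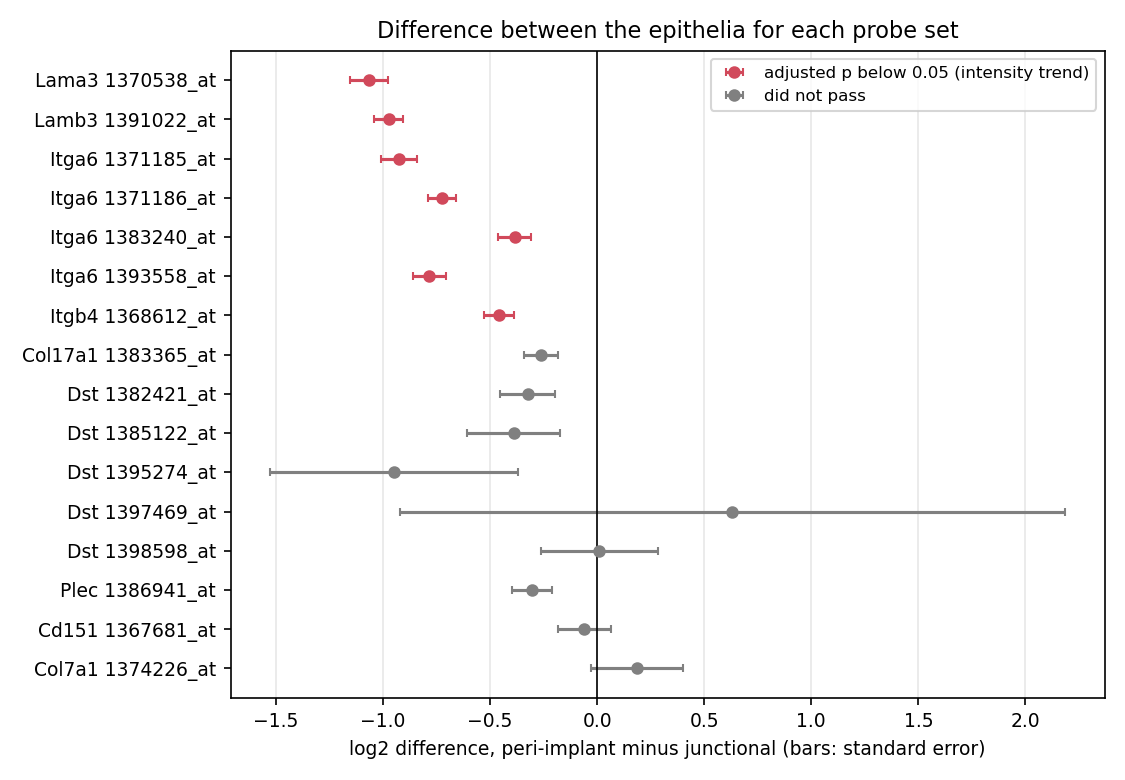
Log2 difference, peri-implant minus junctional, of each member probe set, with bars for the standard error from the fit with the intensity trend and colour for the call. Lama3 at −1.07 and Lamb3 at −0.97 lie farthest below 0 among the probe sets that passed, and the Dst probe set 1397469_at, near background, has the widest bar (standard error 1.55).

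Col17a1 (chr1:256472648-256518857), the transmembrane collagen also called BP180, read 12.58 and 12.66 on the junctional arrays, against 12.39 and 12.32 on the peri-implant arrays (log2). The groups did not overlap, but the difference of −0.26 (SE 0.0799) did not pass (limma adjusted p = 0.0718 with the intensity trend). Cd151 (chr1:205994300-205998307), a tetraspanin that binds laminin-binding integrins, read 12.05 and 12.07 against 11.79 and 12.21. Here peri-implant array 1 was the lowest and array 2 the highest of the 4, so the groups overlapped, and the difference was −0.06 (SE 0.124, limma adjusted p = 0.823).

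Plec (chr7:109768447-109829798) encodes plectin, which links the beta 4 tail to keratin. It read 12.46 and 12.26 on the junctional arrays, against 12.01 and 12.11 on the peri-implant arrays (log2). Both peri-implant arrays were lower, and the difference of −0.30 (SE 0.0933) missed the threshold (limma adjusted p = 0.0764 with the intensity trend). Col17a1 and Plec did pass, lower, in 3 alternative fits, those with low signals raised to background, with dim probe sets left out and with a replicate block. They did not pass in the other alternatives. With raised signals many probe sets have no spread, and the labels give no ground for the block. For neither gene does a missed threshold show equal levels.

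Dst (chr9:43631716-44025535) encodes dystonin, whose epithelial form BP230 is a plaque protein and whose other forms serve nerve and muscle. Its probe set 1382421_at read 10.32 and 10.48 on the junctional arrays, against 9.99 and 10.17 on the peri-implant arrays, a log2 difference of −0.32 (SE 0.128, limma adjusted p = 0.153). The probe set 1385122_at read 8.96 and 8.70 against 8.65 and 8.24, a difference of −0.39 (SE 0.218, limma adjusted p = 0.310). Both were lower without overlap, and neither passed. The probe set 1398598_at read 7.72 and 8.32 against 7.95 and 8.11, with overlapping groups and a difference of 0.01 (SE 0.272).

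The other Dst probe sets lay above background on 1 array each. For 1395274_at the log2 signals were 6.07 and 6.54 against 5.55 and 5.15, and for 1397469_at they were 1.91 and 6.65 against 6.12 and 3.70. Their differences are not read as changes, since signals at this level are not above background. Which dystonin forms the 5 probe sets detect was not examined. Of markers of tissues that make the other forms, 4 of 6 skeletal muscle genes and 2 of 3 measured Schwann cell genes were below background on all 4 arrays, with 0 called.

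Col7a1 (chr8:118483364-118515736) encodes collagen VII of the anchoring fibrils. It read 8.89 and 8.47 on the junctional arrays, against 9.03 and 8.70 on the peri-implant arrays (log2), and the groups overlapped. The difference was 0.19 (SE 0.216, limma adjusted p = 0.655), one of the 3 positive differences among the 16.

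Because each array measures all probe sets at once, differences can be read against another member on the same array, with the junctional mean set to 0. Against Itgb4, Lamb3 stood at −0.62 and −0.41 (log2) in the peri-implant arrays, with the junctional arrays 0.02 either side of 0. Lama3 against Itgb4 stood at −0.71 and −0.50, with the junctional arrays at 0.12 either side. The laminin chains were thus lower relative to Itgb4 on both peri-implant arrays, beyond the spread of the junctional arrays. This was not particular to the laminin chains. Against Itgb4, the Itga6 probe sets 1371185_at (−0.51 and −0.42), 1393558_at (−0.41 and −0.24) and 1371186_at (−0.31 and −0.22) were lower too. The Itga6 probe set 1383240_at was not, at 0.11 and 0.03. The junctional arrays lay at most 0.06 either side of 0 for Itga6. Lama3 against Lamb3 stood at −0.09 and −0.09, inside the junctional range of 0.14 either side. Lamb3 against Col17a1 stood at −0.78 and −0.64, with the junctional arrays at 0.06 either side. These relative values describe unequal change and carry no test.

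**Figure D3:**
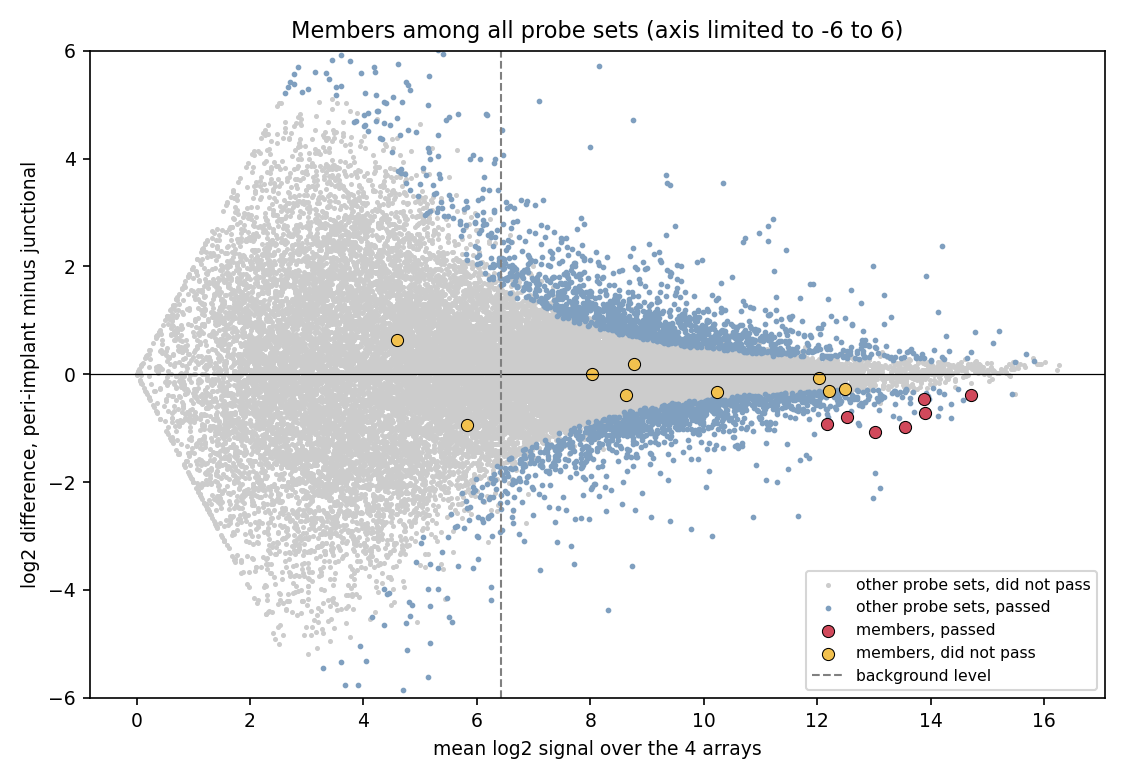
Log2 difference, peri-implant minus junctional, against the mean log2 signal of the 4 arrays, with 1 point per probe set, members outlined, calls of the fit with the intensity trend in colour and the background level dashed. The 7 members that passed lie below 0 at mean signals of 12 and more, and the vertical axis leaves out differences beyond 6.

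Krt5 and Krt14, the keratin pair of basal keratinocytes to whose filaments hemidesmosomes attach, did not pass. Krt14 read 15.73 and 15.82 on the junctional arrays, against 16.10 and 15.82 on the peri-implant arrays, a log2 difference of 0.18 (limma adjusted p = 0.215). Krt5 read 15.84 and 15.87 against 16.23 and 15.87, a difference of 0.19 (limma adjusted p = 0.240). The groups touched or nearly touched for both, with peri-implant array 1 the highest. Against Krt14 on the same array, Lama3 stood at −1.42 and −1.08 and Lamb3 at −1.33 and −0.98 in the peri-implant arrays, while Itgb4 stood at −0.71 and −0.58. The junctional arrays lay at most 0.07 either side of their mean in these contrasts. Krt14 lies at the top of the scale, with 5 or 6 brighter probe sets on each array, and whether it was saturated was not tested.

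Among markers of the cell types a section could hold, 1 of 5 basal keratinocyte genes rose (Krt15) and 0 fell, with summed linear signals of 132954 and 137371 on the junctional arrays, against 171155 and 139537 on the peri-implant arrays. Of 9 general epithelial genes, 1 rose and 0 fell. Of 7 suprabasal genes, 4 fell and 1 rose, with Krt10 at −2.63 in log2 difference. All 5 measured neutrophil genes rose, and their summed linear signal went from 38391.5 and 38665.4 to 103336 and 89952.3. Most of that sum was S100a8 and S100a9, which keratinocytes also make, and the other 3 genes (Cxcr2, Csf3r and Fcgr3a) summed to 1430.6 and 1401.4 against 3267 and 3219. Of 9 macrophage and dendritic cell genes 3 rose and 1 fell (ratio of summed signals 1.89), of 8 fibroblast genes 2 rose and 1 fell (1.17), and of 5 endothelial genes 0 were called (0.934). All 6 T cell genes lay below background on both junctional arrays, so no ratio is given for them, and 1 (Cd2) rose. Of the markers, only Ambn was at log2 0 on an array, peri-implant array 2. Of proteins known from junctional epithelium and enamel organ, Odam and Amtn were not analysed here, Ambn and Amelx lay below background on all 4 arrays in both groups, and Slpi rose by 1.44. The part of cell makeup in the falls of Lama3, Lamb3, Itga6 and Itgb4 was not tested, and in bulk samples fewer cells of a type and less RNA per cell cannot be told apart.

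The other genes of the pathway were counted in 7 lists, with the probe set of highest mean signal for each gene. In all, 22 of 99 measured genes were called with the intensity trend, 15 higher (15.2%) and 7 lower (7.07%), and 0 with default settings. With 1 probe set per gene chosen the same way, 6.6% of all 14217 genes were higher and 4.8% lower. Among genes above background on all 4 arrays, the shares were 18.8% and 8.75% of the 80 list genes, and 8.6% and 6.98% of all 8814 genes. Most of these 22 calls were lost when any single array was left out, in fits that leave 1 array in a group. None of the 22 differences changed sign in those fits. Each list is given below with its median log2 difference, to be read against 0.02 over all probe sets. A dimmer probe set rose for 6 genes that are counted as not past, namely Lamc1, Dag1 (0.59), Plau (1.03), Mmp9 (0.57), Ptpn11 (0.55) and Fermt2, whose dimmer probe set was below background on the junctional arrays.

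Of 8 other laminin chains measured, Lamb1 rose and 7 did not pass (median 0.02). Lamb1, the beta 1 chain of laminins found in most basement membranes, read 11.27 and 11.38 on the junctional arrays, against 11.70 and 11.88 on the peri-implant arrays, a log2 difference of 0.47 (limma adjusted p = 0.0210). Lama5, a chain of epithelial laminin-511, differed by 0.40 and Lama4, a vascular chain, by 0.45 without passing. Lama2, above background on all 4 arrays, was lower without overlap, at −0.65, and did not pass (limma adjusted p = 0.175). Lamb2 differed by 0.35 with overlapping groups and did not pass. The Lamc1 probe sets disagreed, with the brighter one at −0.31 (not past) while the dimmer one rose by 0.79 (limma adjusted p = 0.0281).

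Of 17 other basement membrane and anchoring proteins, 2 rose, 2 fell and 13 did not pass (median 0.16). Col4a1 and Col4a2, the main chains of the collagen IV network, rose. Col4a1 read 10.947 and 10.997 on the junctional arrays, against 12.04 and 12.04 on the peri-implant arrays, a log2 difference of 1.07 (limma adjusted p = 0.000143 with the intensity trend). Its second probe set rose too, by 1.23, and Col4a2 by 0.83. Agrn, the heparan sulfate proteoglycan agrin, fell by 0.48 and Ecm1 by 0.31. Nid2, which links laminin to collagen IV, differed by 1.22 and did not pass (limma adjusted p = 0.0549).

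Of 13 other laminin receptors and integrin partners, 1 fell and 12 did not pass (median −0.09). Itgb1, the beta 1 subunit, fell by 0.32 (limma adjusted p = 0.0497), while its other probe set, at −0.19, did not pass (0.373). Itga3, which forms the other main laminin-332 receptor with beta 1, differed by −0.19 (limma adjusted p = 0.587). Of 14 other tetraspanins, 3 rose, 2 fell and 9 did not pass (median −0.08). Tspan8 fell by 1.11 and Cd63, a marker of late endosomes, by 0.31, while Upk1b, a uroplakin, rose by 1.18, Tspan1 by 1.16 and Cd53, a leukocyte tetraspanin, by 0.93.

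Of 16 proteases that can cut hemidesmosome or basement membrane proteins, 3 rose, 0 fell and 13 did not pass (median 0.06). Plat, tissue plasminogen activator, which makes plasmin, read 11.935 and 12.004 on the junctional arrays, against 14.001 and 13.971 on the peri-implant arrays. Its log2 difference was 2.02 (limma adjusted p = 8.28e-07 with the intensity trend), a 4.04-fold higher signal, and it also passed without each array in turn. Adam9 and Adam17, membrane sheddases with collagen XVII among their substrates, rose by 0.98 and 0.54. Bmp1, which trims laminin-332 and collagen VII precursors, differed by −0.45 and did not pass (limma adjusted p = 0.0974).

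Of 13 keratins and linkers on the cell side, 3 rose, 1 fell and 9 did not pass (median 0.18). Krt17, a keratin of wounded and hyperproliferative epithelium, read 12.95 and 13.05 on the junctional arrays, against 14.89 and 14.77 on the peri-implant arrays. It rose by 1.83 on the log2 scale (limma adjusted p = 1.25e-06 with the intensity trend) and passed without each array in turn. Krt15 rose by 0.42 and Vim, the filament protein of connective tissue cells, by 0.62. Tln1, talin of focal adhesions, fell by 0.66.

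Of 18 kinases, phosphatases and transcription factors that act on hemidesmosomes or their genes, 3 rose, 1 fell and 14 did not pass (median 0.08). Fosl2, an AP-1 subunit, rose by 0.90 at its brighter probe set and by 0.55 at the other. Jun, another AP-1 subunit, rose by 0.57 at 1 of its 3 probe sets and did not pass at the others. Prkcd, a protein kinase C, rose by 0.78, and Met, the hepatocyte growth factor receptor, fell by 0.77. Tp63, the transcription factor of basal keratinocytes, differed by 0.07 (limma adjusted p = 0.710).

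**Figure D4:**
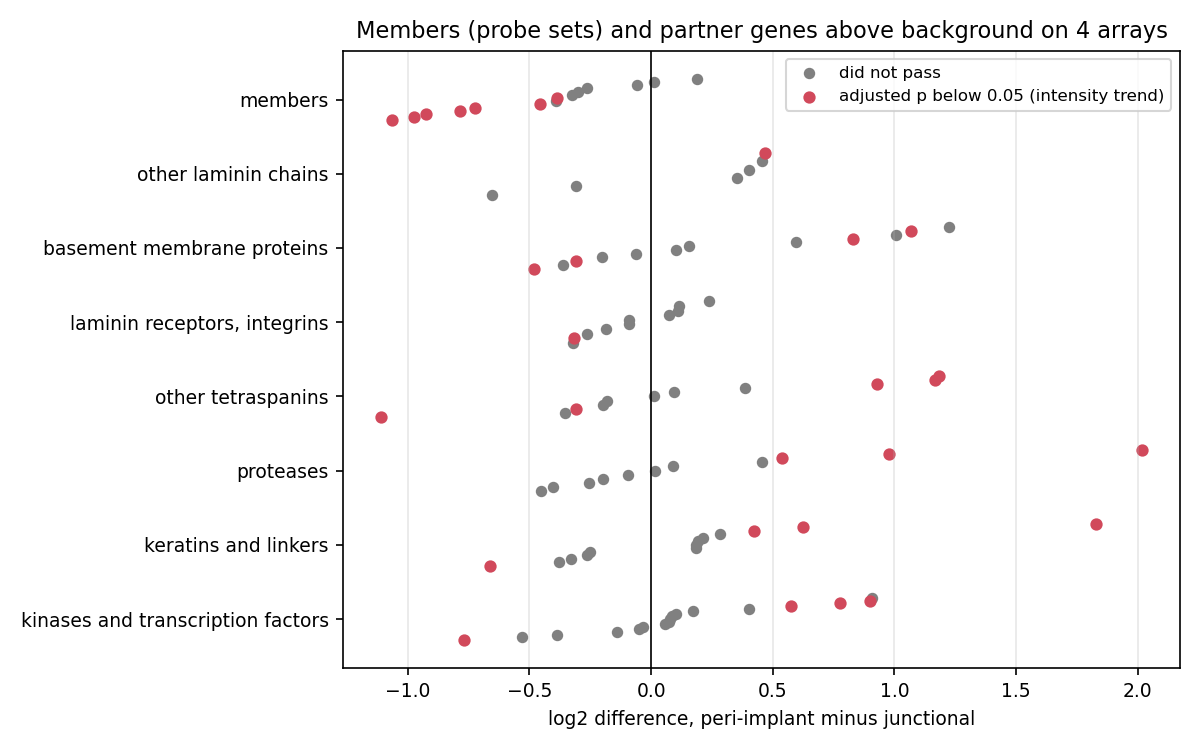
Log2 difference, peri-implant minus junctional, of the member probe sets and of partner genes above background on all 4 arrays, with 1 point per probe set or gene in each list and red for an adjusted p below 0.05 with the intensity trend. The red member points lie between −1.07 and −0.38, while the other lists hold 15 red points above 0 and 7 below.

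The genes whose centred signals over the 4 arrays lay nearest to those of Lama3 were Erc1, Nr4a2, Dpy19l3, Slc29a3 and Dcxr, at root mean square distances of 0.03, 0.04, 0.05, 0.06 and 0.06 (log2) among 8765 candidate genes. Of the members, the Itga6 probe set 1371185_at at 0.094 and Lamb3 at 0.107 were nearest. With 4 arrays in 2 groups, such closeness mostly restates a similar difference between the groups.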

How the data were processed

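The authors deposited log2 signals per probe set for 4 rat expression arrays, and the labels name no software or scaling behind them. Per the labels' protocols, RNA was taken from laser microdissected epithelium, amplified and biotin labelled. Group and replicate number came from the sample titles. Of 31099 probe sets, 57 controls were left out. No array was normalized again and no pseudocount was added. Symbols came from the platform annotation, which gave 1 symbol to 20826 probe sets, several to 436 and none to 9780, and positions from RefSeq (GRCr8).

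The groups were compared by limma 3.58.1 in R 4.3.3 (two-sided, 2 residual degrees of freedom, variances moderated by eBayes), once with default settings and once with an intensity trend and robust prior, with Benjamini-Hochberg adjustment over 31042 probe sets and a threshold of 0.05. The members, lists and the choice of the intensity trend were made with earlier results of these data known. All member probe sets are named, and up to 6 genes per list, called ones first by size, then those above background. Lama4, Lama5, Itga3, Itgb1, Krt5 and Krt14 are always given. Bmp1, Tp63, Cd2 and further probe sets of named genes were given outside that rule, after their values were seen. Mmp13 (0.46) and Junb (0.91), which came next by size in their lists and did not pass, were not described. Likeness to Lama3 is the root mean square distance of signals centred per gene. Alternatives were another prior, scaling, treatment of low signals, a replicate block and leaving out arrays. Tables were made with Python 3.11.15, pandas 2.3.3 and numpy 2.4.6, and figures with matplotlib 3.10.9.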

Additional observations from a re-analysis of the deposited data

How the results depend on the processing

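With the intensity trend, 2762 of 31042 probe sets, 7 of 16 member probe sets and 22 partner genes passed. With default settings 0, 0 and 0 passed. With a replicate block the counts were 4202, 9 and 32, and the default fit with that block passed 0. Leaving out single arrays gave 73 to 353 probe sets, 0 to 7 member probe sets and 2 to 7 partner genes, in fits where the lone array of a group is assumed to vary like the other group. The other settings, which were a prior without the robust option, quantile normalization, a shift to one median, low signals raised to background and dim probe sets left out, gave 6 to 9 member probe sets. The differences of the 7 members that fell were negative in every setting run. No p from the setting with raised signals is given, since many probe sets then have no spread.

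Directions that turned belong to members that did not pass. Dst 1397469_at (0.63) became −0.11 with low signals raised and ranged from −1.74 to 2.999 when single arrays were left out. Dst 1398598_at (0.01) became −0.0562 with quantile normalization and −0.0376 with a shift to one median, and ranged from −0.29 to 0.31. Without single arrays Cd151 ranged from −0.27 to 0.15 and Col7a1 from −0.0193 to 0.39. The cause was not tested.

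The groups share replicate numbers 1 and 2, but the labels tie them to no animal or day. The deviations of same-numbered arrays from their group means correlated at 0.061 over the 15185 probe sets above background on all 4 arrays. With 2 arrays per group, both pairs give this same value, and low signals are left out of it. It therefore cannot decide whether arrays of the same number belong together. Probe sets at log2 0 did go with the number (728 and 661 on arrays 1, 377 and 381 on arrays 2). The samples share a number and were not treated as paired. Col17a1 and Plec passed with the block. Signals near background limit Dst, for which 2 of 5 probe sets cannot be read.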
